A study of Homo sapiens with 6 samples.

Results

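Histones are the proteins that package DNA into nucleosomes, and 9 human histone genes were followed here in lung cancer cells depleted of a splicing factor. They comprised 4 replication-linked genes (H1-2, H2BC21, H2BC12 and H2AC6), 4 replacement variant genes (H2AZ1, H2AJ, H3-3A and H3-3B) and H2AX, which shares features of both classes. The genes were chosen by name, and the Ensembl identifiers of the tables were matched to current symbols through older ones, such as HIST2H2BE for H2BC21. These were 9 of 50868 genes listed and 9 of 9685 genes tested, since each stood above 1 FPKM in all 6 libraries. FPKM is the fragment number of a gene scaled by the length of its model and by the depth of the library.

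The libraries were labelled A549, an established human lung adenocarcinoma line. Total RNA was taken from 3 samples transfected with a scramble siRNA (control, genotype given as WT) and from 3 transfected with an siRNA against SF3B4. SF3B4 belongs to SF3b, the complex within the U2 snRNP that helps to find the branch point when introns are removed. The titles called the replicates biological without telling whether they were separate cultures, and p-values therefore reflect the spread among these 6 samples alone. In the SF3B4 siRNA group, replicates 2 and 3 carried the genotypes SF3B5 knockdown and SF3B6 knockdown, against titles and treatments that named SF3B4. The names of the tables carried H1650, another lung cancer line.

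Replication-linked histone genes are made in bulk while DNA is copied. Their mRNAs usually end just after a stem-loop instead of in a poly(A) tail, and the stem-loop is bound by SLBP, but some of these genes also give polyadenylated mRNAs that end further downstream. Replacement variants are made throughout the cell cycle from ordinary polyadenylated mRNAs, most of them spliced, and are placed into chromatin by dedicated chaperones.

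SF3B4 itself read 88.6, 92 and 93.8 FPKM in the controls, against 22, 17.7 and 22.3 FPKM after its siRNA (log2 fold change -2.15 ± 0.10, SE; limma adjusted p = 8.8e-05). The target was low in each library labelled with its siRNA. The steps between low FPKM values implied 17508313 to 18529309 fragments per library. The epithelial keratins KRT8, KRT18 and KRT19 were high (control means of 232, 257 and 643 FPKM). By contrast, AKR1C1, ALDH1A1 and CPS1, genes typical of A549, were below 0.1 FPKM in every library. On the same list, AKR1C3 (0.678 to 1.15 FPKM) and AKR1B10 (0.791 to 2.25 FPKM) were above that level. Of 13 such epithelial and A549 markers, 7 were tested, 3 rose and 1, VIM, fell. Of 7 markers of other cell types, PTPRC was at 0 in all libraries, and CD14 and COL1A1 rose (log2 fold changes 1.08 and 0.73, limma adjusted p = 0.0013 and 0.0023). COL3A1 (means of 0.801 FPKM in the controls and 0.689 FPKM with SF3B4 siRNA) and PECAM1 (0.102 and 0.0841 FPKM) had slightly lower means and were not tested. CD3E and VWF were below 0.1 FPKM in every library. The summed level of the 7 markers, mostly CD14 and COL1A1, was 4.72 to 5.05 FPKM in the controls and 7.96 to 9.55 FPKM with SF3B4 siRNA. Their part in the results below was not tested.

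Stem-loops are shown because they are the signal that sets replication-linked mRNAs apart. The search used, without gaps, a stem (GGNNCT), a loop (NTTN) and the other arm of the stem (AGNGCC) on the transcript strand of GENCODE 29 (build GRCh38), and 56 of 19922 protein-coding genes (0.281%) carried a match, 32 of them among the 87 histone genes of the lists. Of the 9 genes, 3 had the match, in capitals here within 26 bases of the 3' UTR, 5′ to 3′. The stem-loop of H2BC21 lies at chr1:149886183-149886208 on the minus strand, that of H2AC6 at chr6:26124664-26124689 on the plus strand and that of H2AX at chr11:119094893-119094918 on the minus strand.
H2BC21: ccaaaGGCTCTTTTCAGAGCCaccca
H2AC6: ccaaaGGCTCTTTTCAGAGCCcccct
H2AX: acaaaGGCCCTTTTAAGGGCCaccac

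The 16 capital letters were the same in H2BC21 and H2AC6, whereas H2AX carried its own version. In all 3 genes the annotated transcript ran on far past the stem-loop, by 1729 bases in H2BC21, 1128 in the longest transcript of H2AC6 and 1044 in the coding transcript of H2AX. A polyadenylation signal (AATAAA or ATTAAA) began 24, 29 and 45 bases before these ends. Such a signal in the last 60 bases of a transcript was found in 84.6% of protein-coding genes, so it marks no special class. The models of H1-2 and H2BC12 held the coding sequence alone (642 and 381 bases), so neither their stem-loops nor their 3' ends could be searched. No transcript of H2AZ1, H2AJ, H3-3A or H3-3B held the motif.

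The 2 H2B genes also shared an arrangement upstream of their start sites, shown because H2BC21 rose while H2BC12 did not pass the test. Both RefSeq promoters (GRCh38.p14) had the octamer ATTTGCAT and then TATAAA on the gene's strand, in capitals here. The stretch of H2BC21 lies at chr1:149886707-149886728 and that of H2BC12 at chr6:27146880-27146904, both on the minus strand.
H2BC21: ATTTGCATaaggtggtTATAAA
H2BC12: ATTTGCATgagaggtcctaTATAAA

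The octamer of H2BC21 began 46 bases before the start and TATAAA 30 bases before it. For H2BC12 the table gave a pair of start sites, with the octamer 46 or 49 bases and TATAAA 27 or 30 bases before them. Over 35116 promoters of 300 bases, read on both strands, ATTTGCAT was found in 1.77% and TATAAA in 11.5%. All 9 genes were named in the promoter table. The promoters of H2AC6 and H3-3B had the octamer on the other strand, while those of H1-2, H2AX, H2AZ1, H2AJ and H3-3A had none. These matches describe letters in a window only.

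After SF3B4 siRNA, H2BC21 rose 2.8-fold, while H2AX fell to 55.8%, H3-3B to 72.3% and H2AZ1 to 74.5% of control. The other 5 genes did not pass the test. Of the 9 genes, 1 was therefore higher and 3 lower, 44.4% called, beside 34.1% of all tested genes (16.0% higher and 18.1% lower; limma on log2(FPKM + 0.1), Benjamini-Hochberg adjusted p under 0.05). Their median log2 fold change was 0.06, against -0.004 over all genes tested. The groups did not overlap in 4 of the 9, beside 49.5% of all tested genes. With 9 genes, these shares describe the set and do not set it apart.

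**Figure D1:**
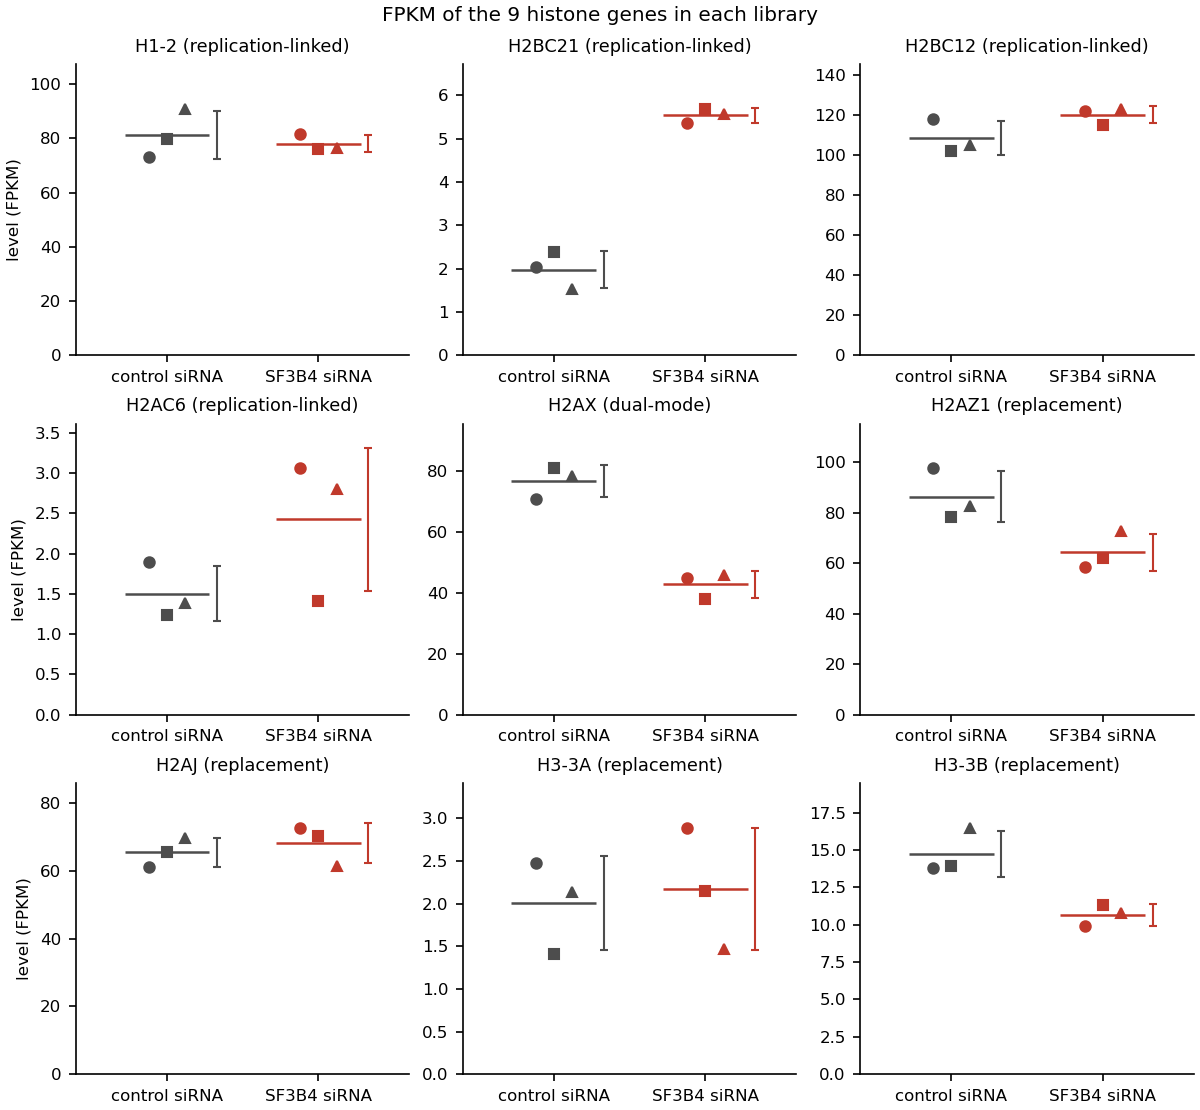
Level in FPKM (vertical axes from 0, a different scale in each panel) of the 9 histone genes in each library, with circles, squares and triangles for replicates 1, 2 and 3, horizontal lines for the mean and bars for the SD of 3 libraries. H2BC21 was higher in all 3 SF3B4 siRNA libraries, H2AX, H2AZ1 and H3-3B were lower in all 3, and the groups of the other 5 genes overlapped.

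Among the replication-linked genes, H2BC21, which encodes an H2B core histone (ENSG00000184678, chromosome 1, 149884459 to 149886652, 1 exon), was the one that changed. It stood at 2.04, 2.37 and 1.52 FPKM in the controls and at 5.35, 5.69 and 5.56 FPKM with SF3B4 siRNA. The siRNA libraries lay close together, and the lowest of them was far above the highest control. Group means were 1.98 ± 0.426 and 5.54 ± 0.175 FPKM (SD, n = 3 each). This is a log2 fold change of 1.46 ± 0.15 (SE; 95% interval 1.10 to 1.82; limma adjusted p = 0.00056). These values rested on few fragments, 73 to 111 per control library and 247 to 272 per siRNA library, with a counting error of 10.3% and 6.16% per library. The call held in 14 of 14 alternative settings in which the gene was tested. Bulk RNA cannot tell a change in the cells making a transcript from a change in its level per cell. This holds here and for the genes that follow.

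H2BC12 encodes another H2B (ENSG00000197903, chromosome 6, 27146418 to 27146798) and had the highest level of the 9 genes. It was listed at 118, 102 and 105 FPKM in the controls and at 122, 115 and 123 FPKM with SF3B4 siRNA. The first control lay within the siRNA range. Its log2 fold change was 0.15 ± 0.07 (95% interval -0.02 to 0.31; limma adjusted p = 0.15). Without control replicate 1 it passed, at 0.21 (adjusted p = 0.033), so a small rise was neither shown nor excluded. A rise as large as that of H2BC21 lay outside this interval.

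H2AC6 encodes an H2A core histone (ENSG00000180573, chromosome 6, 26124145 to 26139116). It was listed at 1.89, 1.24 and 1.38 FPKM in the controls and at 3.06, 1.41 and 2.8 FPKM with SF3B4 siRNA. Replicates 1 and 3 of the siRNA group were above all controls, whereas replicate 2 lay among them. H2AC6 had a log2 fold change of 0.60 ± 0.30 (95% interval -0.10 to 1.31; limma adjusted p = 0.16). Without SF3B4 siRNA replicate 2 it was 0.94 (adjusted p = 0.014), so that 1 library decided the call. That library held 107 fragments of H2AC6, against 224 and 217 in the other siRNA libraries.

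H1-2 encodes a linker histone, which binds the DNA between nucleosomes (ENSG00000187837, chromosome 6, 26055787 to 26056428). Its level was 73.3, 79.7 and 91 FPKM in the controls and 81.8, 76.2 and 76.3 FPKM with SF3B4 siRNA, with all siRNA libraries inside the control range. Its log2 fold change was -0.05 ± 0.09 (95% interval -0.25 to 0.15; limma adjusted p = 0.67). Without control replicate 3 the sign turned, to 0.03.

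H2AX encodes the H2A variant that is phosphorylated around DNA breaks (ENSG00000188486, chromosome 11, 119093854 to 119095467). It gives both a stem-loop mRNA during replication and a longer polyadenylated one. It fell from 70.8, 80.9 and 78.4 FPKM to 44.7, 37.8 and 45.9 FPKM, and every siRNA library was below every control. The means were 76.7 ± 5.29 and 42.8 ± 4.35 FPKM (SD, n = 3 each). The log2 fold change was -0.84 ± 0.09 (95% interval -1.06 to -0.63; limma adjusted p = 0.00064), and it was called in 15 of 15 alternatives. H2AX and H2BC21, both with a stem-loop and a long tail beyond it, thus changed in opposite directions, and their intervals lay far apart.

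Of the replacement variants, H2AZ1 encodes H2A.Z, which is common at the nucleosomes flanking gene starts (ENSG00000164032, chromosome 4, 99948086 to 99950388). It was listed at 97.7, 78.5 and 82.8 FPKM in the controls and at 58.6, 61.9 and 72.6 FPKM with SF3B4 siRNA. The groups did not overlap, but the highest siRNA library came close to the lowest control. H2AZ1 had a log2 fold change of -0.42 ± 0.11 (95% interval -0.68 to -0.17; limma adjusted p = 0.02). The call held in 11 of 15 alternatives and was lost without control replicate 1 (-0.33, adjusted p = 0.052), SF3B4 siRNA replicate 1 (-0.36, 0.062) or replicate 2 (-0.40, 0.064) and without the filter on low values (0.07). An antisense gene, H2AZ1-DT, covers 9.68% of its exons on the opposite strand, and the strand setting of the counting is not given in the sources used here.

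H3-3A and H3-3B encode the same protein, H3.3, the H3 variant deposited outside replication. H3-3B (ENSG00000132475, chromosome 17, 75776434 to 75785893) fell from 13.8, 13.9 and 16.5 FPKM to 9.89, 11.3 and 10.8 FPKM, with each siRNA library below each control. The log2 fold change was -0.46 ± 0.10 (95% interval -0.69 to -0.24; limma adjusted p = 0.0092), called in 15 of 15 alternatives. H3-3A (ENSG00000163041, chromosome 1, 226061851 to 226072001) was listed at 2.48, 1.41 and 2.13 FPKM in the controls and 2.89, 2.15 and 1.47 FPKM with SF3B4 siRNA. Its groups overlapped throughout, and the log2 fold change of 0.10 ± 0.28 (95% interval -0.57 to 0.76; adjusted p = 0.83) was too imprecise to show whether H3-3A moved with H3-3B. It turned to -0.13 without control replicate 2 and without SF3B4 siRNA replicate 1.

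The low level of H3-3A stands beside high values at its processed pseudogenes, which were singled out after the values of 79 histone pseudogenes and copies were seen. H3P6 matched the 411 bases of the H3-3A coding sequence at every position, and H3P16 differed at 3 of them. The coding sequence of H3-3B was 78.6% identical to that of H3-3A. H3P6 was listed at 196, 145 and 149 FPKM in the controls and at 220, 214 and 221 FPKM with SF3B4 siRNA (log2 fold change 0.43 ± 0.11, limma adjusted p = 0.022). H3P16 went from 106, 87.4 and 93.5 FPKM to 137, 118 and 124 FPKM (0.41 ± 0.09, adjusted p = 0.011). Both copies were higher in every siRNA library, but the call of H3P6 held in only 9 of 15 alternatives. It was lost without each library in turn except control replicate 1, at adjusted p values of 0.053 to 0.07, and without the filter (0.072).

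H3-3A held 0.42% to 0.87% of the summed FPKM of the 3 loci. This share depends on model lengths, which were 4448 bases for H3-3A and 411 for each copy. In implied fragments its part was larger. Over the 3 controls, H3-3A held 484 fragments, H3P6 3639 and H3P16 2128, and over the 3 siRNA libraries 519, 4853 and 2811. Fragments from the coding sequence could come from either the gene or H3P6, so the values of all 3 loci are uncertain, and how the authors' counting divided them was not tested. The sum of the 3 was 261 ± 37.7 FPKM in the controls and 347 ± 13 FPKM with SF3B4 siRNA (SD, n = 3 each). The direction at the copies was opposite to that of H3-3B.

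**Figure D2:**
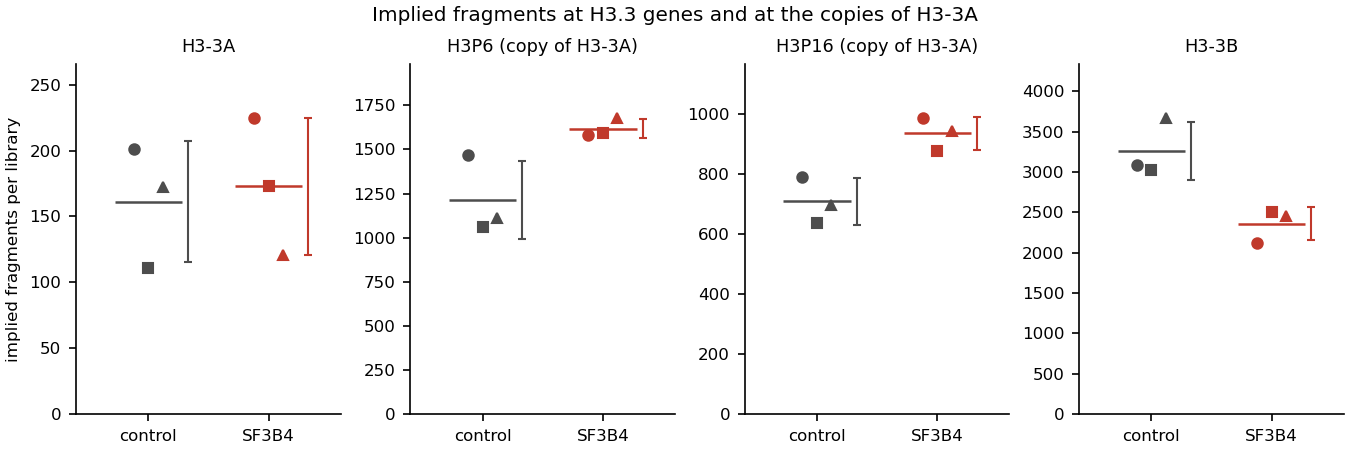
Fragments per library implied by the FPKM values (vertical axes from 0, a different scale in each panel) at H3-3A, at its copies H3P6 and H3P16 and at H3-3B, with a symbol for each replicate, lines for means and bars for the SD of 3 libraries. H3P6 and H3P16 held more fragments in each siRNA library than in any control, H3-3B held fewer, and H3-3A, with 111 to 225 fragments, overlapped.

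H2AJ encodes an H2A variant that differs little from canonical H2A (ENSG00000246705, chromosome 12, 14774383 to 14778002). Its level was 61.2, 65.6 and 69.7 FPKM in the controls and 72.8, 70.3 and 61.5 FPKM with SF3B4 siRNA, with SF3B4 siRNA replicate 3 among the controls. For H2AJ the log2 fold change was 0.06 ± 0.08 (95% interval -0.14 to 0.25; limma adjusted p = 0.65), an interval that leaves out a fall as large as the estimate for H2AZ1 or H3-3B.

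Set against each other, 1 of 4 replication-linked genes rose and none fell, with a median log2 fold change of 0.38, while 2 of 4 replacement genes fell and none rose, with a median of -0.18. Called were thus 25% and 50% of the classes, beside 34.1% of all tested genes, and with 4 genes in each class no difference between the classes is shown. By limma's unadjusted p under 0.05, too, 0 replication-linked genes fell and 0 replacement genes rose. The summed FPKM of the replication-linked genes was 195, 186 and 199 in the controls and 212, 198 and 208 with SF3B4 siRNA. That of the replacement genes was 175, 159 and 171 in the controls and 144, 146 and 146 with SF3B4 siRNA. The ratio of the first sum to the second was 1.15 ± 0.0288 in the controls and 1.42 ± 0.0554 with SF3B4 siRNA (SD, n = 3 each), and the groups, 1.11 to 1.17 and 1.36 to 1.47, did not overlap. These sums take H3-3A as listed. With the FPKM of its copies H3P6 and H3P16 added to the replacement sum, the ratio was 0.41, 0.47 and 0.48 in the controls. It was 0.42 in each siRNA library, and the groups overlapped. This alternative was chosen after seeing the data. It weighs a fragment of a copy, on a model of 411 bases, more than one of H3-3A, on 4448 bases. Whether the difference holds with the copies on a like length was not tested. No test was made of either ratio. H2BC12 and H1-2 supplied 96% to 98.5% of the replication-linked sum, and neither passed the test alone, so H2BC21 and H2AC6 had little weight in it.

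Levels between genes depend on the gene models behind FPKM. In the controls, H2BC12 (102 to 118 FPKM) was above the others. H2AZ1 (78.5 to 97.7), H1-2 (73.3 to 91), H2AX (70.8 to 80.9) and H2AJ (61.2 to 69.7) followed, and of these neighbours only H2AX and H2AJ did not overlap. H3-3B came next, at 13.8 to 16.5 FPKM, and the ranges of H2BC21, H3-3A and H2AC6, between 1.24 and 2.48 FPKM, overlapped. The steps of the values implied model lengths of 381 bases for H2BC12 and 642 for H1-2, but 6473 for H2AZ1 and 12247 for H3-3B, against 979 and 2705 bases in the main coding transcripts of these 2 genes in GENCODE 29. In fragments, H3-3B therefore had 3031 to 3674 per control library and H2BC12 only 693 to 820, the reverse of their order in FPKM. A length shared by all libraries leaves the differences between groups as they are.

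A further trait not used to choose the genes was whether annotated introns split the coding sequence, which they did in H2AZ1, H3-3A and H3-3B. Of these 3, 2 were lower and 1 was not called. Of the 6 with an unsplit coding sequence, 1 was higher, 1 lower and 4 not called. Beside the 34.1% called among all tested genes, sets of 3 and 6 show no contrast. All 3 transcripts of H2AC6, 2 of the 3 of H2AJ and 1 of the 2 of H2AX had an intron outside the coding sequence, and H2BC21, H2BC12 and H1-2 had none.

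Other histone genes changed in both directions in the replication-linked class, and 2 fell in the replacement class. Of 66 other replication-linked genes, 54 had a mean below 1 FPKM and were not tested, and 7 of them were at 0 in all libraries. Whether the libraries were selected for poly(A) is not given in the sources used here. Of 10 RNAs without a poly(A) tail that were looked up, 9 were found, 4 were tested and none was called by limma (1 higher at an unadjusted p under 0.05). Their summed level was 70.9 to 101 FPKM in the controls and 90.2 to 113 FPKM with SF3B4 siRNA. Most of this sum came from RN7SL1 and RN7SL2 (means of 35.8 and 52.6 FPKM over the 6 libraries). The others found were low, with means of 0 to 2.52 FPKM. Of the 12 other replication-linked genes tested, 2 rose and 2 fell (median log2 fold change 0.16), 33.3% called beside 34.1% of all tested genes.

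H2AC19, an H2A gene, rose from 43.7, 50.2 and 49.4 FPKM to 61.4, 71.6 and 59.5 FPKM (log2 fold change 0.42 ± 0.09, limma adjusted p = 0.01). Its near-identical neighbour H2AC18 went from a mean of 17.4 to 24.7 FPKM without passing (0.54, adjusted p = 0.087; 0.78 and 0.006 without control replicate 3), and fragments could be split between them. H2AW (14.8 and 15.1 FPKM), H4C11 (13.3 and 9.21) and H4C12 (6.6 and 5.31), which encode an H2A and a pair of H4 histones, did not pass (adjusted p = 0.93, 0.15 and 0.70). H4C11 passed without control replicate 1 (-0.76, adjusted p = 0.003).

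Histone genes below a mean of 5 FPKM, and H2BC19P, were named after their values were seen. H2BC5, an H2B gene, stood at 3.24, 1.53 and 3.08 FPKM in the controls and at 6.04, 5.37 and 6.26 FPKM with SF3B4 siRNA (log2 fold change 1.21 ± 0.27, limma adjusted p = 0.014). All siRNA libraries were above all controls, though the call was lost without SF3B4 siRNA replicate 1 (adjusted p = 0.05 when rounded, not past the threshold). Like H2BC21 it has a stem-loop transcript, of 496 bases, and in addition a transcript of 789 bases that lacks the motif. H2BC9 fell from 3.01 ± 0.172 to 1.15 ± 0.527 FPKM (log2 fold change -1.40 ± 0.28, adjusted p = 0.0084).

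H2AC20, an H2A gene on chromosome 1 (149886975 to 149887364), starts 322 bases from H2BC21 and runs the other way. It fell from 6.18, 4.76 and 3.67 FPKM to 3.66, 1.98 and 1.94 FPKM, a log2 fold change of -0.95 ± 0.29 (limma adjusted p = 0.041). The neighbouring pair thus moved in opposite directions. With only 14 to 44 fragments per library, the H2AC20 call was lost without the filter (adjusted p = 0.1) and without control replicate 1 (0.1) or 2 (0.097) or SF3B4 siRNA replicate 2 (0.13) or 3 (0.12). H2BC19P, an H2B pseudogene, also fell, from 7.53 ± 1.93 to 2.97 ± 0.653 FPKM (-1.30, adjusted p = 0.0047).

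Of 12 other replacement genes, 5 were tested, 2 fell and none rose by limma, nor did any at an unadjusted p under 0.05 (median log2 fold change -0.12). With 5 genes, the 40% called is not set apart from the 34.1% overall. H1-10, a replication-independent linker histone (chromosome 3, 129314771 to 129316277), fell from 143, 222 and 203 FPKM to 103, 107 and 100 FPKM (log2 fold change -0.85 ± 0.15, limma adjusted p = 0.0062). Each siRNA library was below each control. An antisense gene covers 22.9% of the exons of H1-10.

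CENPA, the H3 variant of centromeres, fell from 5.83 ± 0.144 to 3.48 ± 0.467 FPKM (log2 fold change -0.73 ± 0.11, limma adjusted p = 0.0023). H2AZ2, which encodes the second H2A.Z protein, was at 31.5 and 28.8 FPKM, MACROH2A1 at 7.04 and 7.12 FPKM and MACROH2A2 at 34.7 and 33.1 FPKM. None of these 3 passed (adjusted p = 0.32, 0.91 and 0.42).

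**Figure D3:**
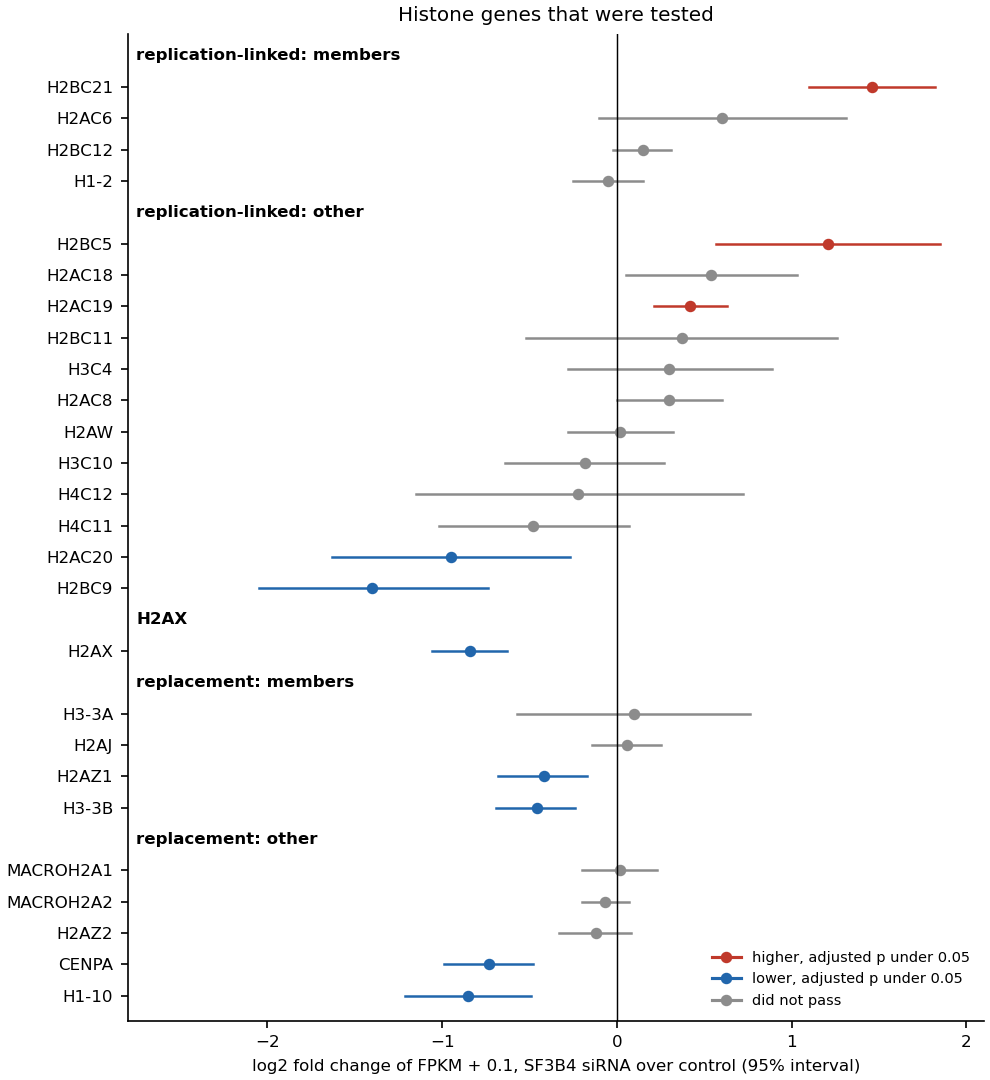
Log2 fold change of FPKM + 0.1, SF3B4 siRNA over control (horizontal axis), of the 26 histone genes of the lists that were tested, in rows by class; points are estimates from 3 libraries per group and lines are 95% intervals, coloured by call. H2BC21, H2BC5 and H2AC19 lie to the right of 0 and H2BC9 and H2AC20 to the left among the replication-linked genes, while all called replacement genes and H2AX lie to the left.

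Of the factors that make histone mRNAs, 18 were tested, 4 fell and 1 rose (median log2 fold change -0.17). This is 27.8% called, no more than the 34.1% of all tested genes (18.1% lower and 16.0% higher). SLBP, which binds the stem-loop, fell from 12.4, 11.6 and 12.5 FPKM to 8.27, 6.45 and 5.85 FPKM. All siRNA libraries were below all controls, and the log2 fold change was -0.83 ± 0.13 (limma adjusted p = 0.0026). SRRT, which links the mRNA cap to processing, fell from 15.3 ± 0.61 to 10.7 ± 0.906 FPKM (-0.51, adjusted p = 0.0035). Of the Sm proteins, which the U7 particle of histone mRNA cleavage shares with the spliceosome, SNRPB (-0.37, adjusted p = 0.003) and SNRPG (-0.27, 0.025) fell and SNRPD3 rose (0.23, 0.046). The calls of SNRPG and SNRPD3 held in only 9 and 5 of 15 alternatives. SNRPD3 lost its call without each of the 6 libraries except control replicate 2, and SNRPG without control replicate 2 or any siRNA replicate (adjusted p of 0.056 to 0.076). NPAT, the activator of replication-linked histone genes, was at 0.0712 to 0.217 FPKM and was not tested.

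Of the histone chaperones and exchange factors, 31 were tested, 9 fell and 1 rose (median log2 fold change -0.08). This is 32.3% called, beside 34.1% of all tested genes (18.1% lower and 16.0% higher). ASF1B, which hands H3 and H4 to the assembly machinery, fell from 42.5, 46.2 and 46.7 FPKM to 21.7, 18.8 and 23.3 FPKM, with no overlap. Its log2 fold change was -1.09 ± 0.09 (limma adjusted p = 0.00025). CHAF1A (-0.65, adjusted p = 0.0069) and CHAF1B (-0.81, 0.0035), subunits of CAF-1, which places H3 and H4 on newly copied DNA, fell too. HJURP, the chaperone of CENPA, fell by 0.86 on the log2 scale (adjusted p = 0.0012).

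DNAJC9, a co-chaperone of H3 and H4 (-0.83, limma adjusted p = 0.0027), IPO4, which imports them into the nucleus (-0.80, 0.0041), TONSL, which reads newly made H4 (-0.55, 0.0035), and MCM2, a helicase subunit that binds H3 and H4 at the fork (-0.53, 0.0035), also fell. HIRA, which deposits H3.3, was at 10.9 ± 0.721 and 11.8 ± 1.26 FPKM and did not pass (0.10, adjusted p = 0.46). CABIN1, a partner of HIRA, rose from 7.3 ± 0.176 to 9.41 ± 0.403 FPKM (0.36, adjusted p = 0.0094).

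**Figure D4:**
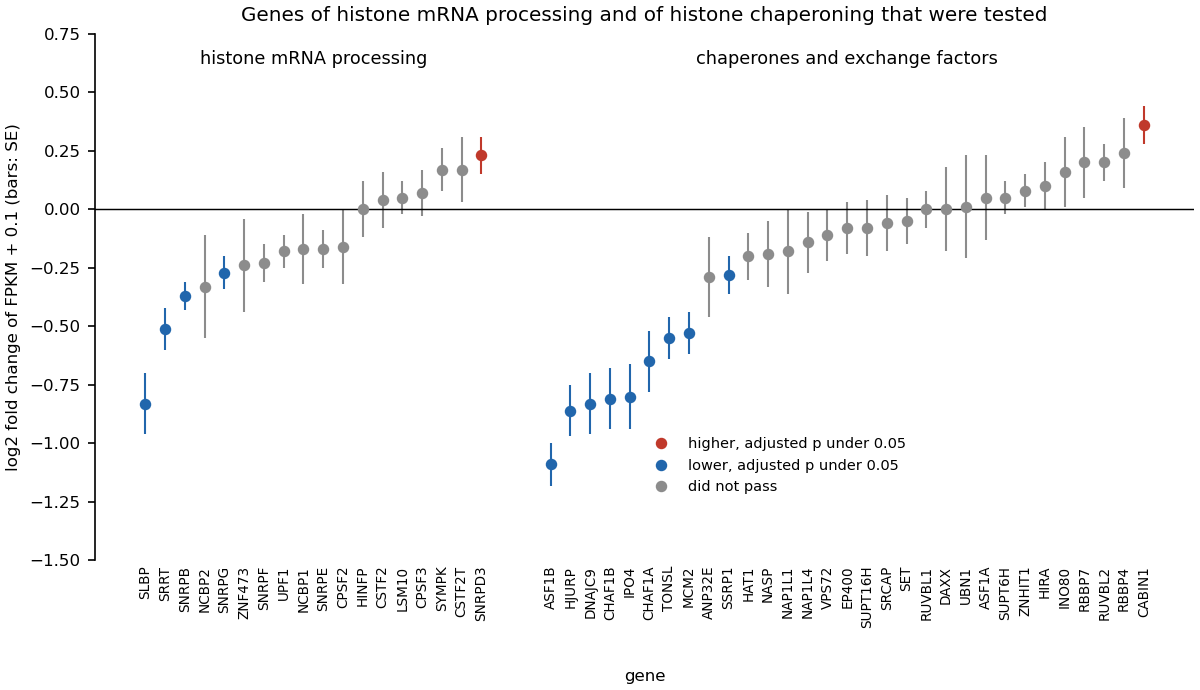
Log2 fold change of FPKM + 0.1, SF3B4 siRNA over control (vertical axis), of the 18 tested genes of histone mRNA processing and the 31 tested chaperones and exchange factors, ordered by size within each list; bars are standard errors and colours give the call. SLBP (-0.83) and ASF1B (-1.09) are the lowest of their lists, and SNRPD3 and CABIN1 are the only called rises.

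Log2 values were centred on each gene's control mean and compared by their root mean square difference across the 6 libraries. The genes most like 4 of the histone genes were sought among 4650 or 4649 genes with a mean of at least 5 FPKM. For H2BC21 these were GBP2 (0.19), DSG3 (0.20) and CEMIP2 (0.20), and for H2AC6 they were UBAC2 (0.17), ZBED10P (0.22) and FAM83A (0.23). H2AZ1 was nearest to BAZ1B (0.052), GART (0.053) and AZIN1 (0.055), and H3-3B to FZD2 (0.057), SH3BP1 (0.058) and XXYLT1 (0.065). No other histone gene was among them, but those below the minimum could not appear, such as H2BC5 (mean 4.26 FPKM), H2BC21 (3.76) and H2AC6 (1.96). Only the 3 nearest genes were kept for each, so the absence of other histone genes says little.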

How the data were processed

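Total RNA from 6 libraries was sequenced with a kit for Illumina, per the labels' protocols. The values are FPKM, as deposited by the authors for each library. The submitters' processing notes name HISAT2 2.0.4, StringTie 1.3.0 and GRCh38. Their roles, the annotation and the strand setting were not given in the sources used here. Symbols, positions and transcripts came from gene name tables and GENCODE 29, where 50111 of 50868 identifiers were found. Groups came from the titles.

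The 9685 genes that reached an FPKM of 1 in 3 or more libraries were tested with limma 3.58.1 in R 4.3.3 (intensity trend, robust option, two-sided) on log2(FPKM + 0.1), which understates changes of low genes, with Benjamini-Hochberg adjustment over all of them. The fit was also run on simulated data with far fewer changed genes than were called here, so that run gives no rate of false calls for these data. As FPKM is no count, no count model was used. Low values of single-exon genes were whole fragments, within 0.03, in 98.7% to 98.9% of cases. Fragments of a gene were derived from that step and the shortest length from 200 to 15000 bases that made all 6 values whole. A multiple of that length could make them whole too, so these fragment numbers are the smallest found. They cover counting error only.

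The genes and lists were chosen with earlier results of these data known. Named were SF3B4, the 9 genes, other histone genes whose mean FPKM reached 5, up to 8 called genes of the mRNA processing and chaperone lists by size, MCM2, SLBP, NPAT, HIRA and CHAF1A, markers, and the 3 genes nearest to H2BC21, H2AC6, H2AZ1 and H3-3B. Alternatives changed the pseudocount, filter, scaling, test options and block, or left out 1 library. Not every gene this rule allows is reported here. The alternatives were extended to the other named genes and lists after their values were seen.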

Additional observations from a re-analysis of the deposited data

How the results depend on the processing

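With a mean FPKM of at least 5 as the filter, 1027 genes were higher and 940 lower of 4752 tested, and of the 9 histone genes 0 were higher, because H2BC21, H2AC6 and H3-3A were no longer tested. Leaving out 1 library at a time gave 1094 to 1492 genes higher and 1331 to 1604 lower, and 1 to 2 of the 9 histone genes higher and 2 to 3 lower. Rescaling to TPM gave 1641 higher and 1629 lower, and no scaling moved the median log2 fold change beyond 0.028. Same-numbered libraries did not deviate together (r = -0.08, 0.02 and -0.12). This shows no shared effect of a number, but it cannot tell whether the cultures were paired. With the replicate block, 1290 genes were higher and 1537 lower, and of the 9 histone genes 1 was higher and 3 lower, as without it. Without 1 library the direction turned for H3-3A (-0.13 to 0.34), H1-2 (-0.13 to 0.03), H4C12 (-0.60 to 0.14), H2AW (-0.09 to 0.14; -0.07 without control replicate 1) and MACROH2A1 (-0.03 to 0.09), none of them called. Leaving out 1 library gave ratios of summed FPKM of 1.14 to 1.16 in the controls and 1.39 to 1.45 with SF3B4 siRNA. With H3P6 and H3P16 added to the replacement sum, chosen after seeing the data, the ratio was 0.45 ± 0.0394 in the controls and 0.42 ± 0.00463 with SF3B4 siRNA (SD, n = 3 each). The rise was thus absent with the copies added at their own FPKM, which rests on shorter models than that of H3-3A. Adding them on a like length was not tested. H2BC21, H2AX and H3-3B kept their calls in each alternative in which they were tested. Depth limits H2BC21, H2AC6, H3-3A, H2BC5 and H2AC20, which held 14 to 272 fragments per library.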
